A study of Homo sapiens with 16 samples.

Results

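The genes described here are 7 of the 60623 genes in the files: *KIAA0087*, *PRSS2*, *ZNF608*, *AC026369.3*, *AC012085.2*, *CARMIL2* and *ETS2*. They were selected on their low counts with both shRNAs against *EVI1* in MUTZ-3 cells, with no stated threshold. Their knockdown values are therefore a description and carry no test. The question that the choice did not settle is whether these genes also followed *EVI1*, listed in the files as *MECOM*, when PARP1 was inhibited, and it was examined in the PARPi libraries, whose values the selection did not use, although earlier results from them were known when the genes were chosen. At 48 h of PARP inhibition (PARPi), *ETS2*, *CARMIL2*, *ZNF608* and *KIAA0087* fell together with *MECOM* relative to the vehicle DMSO of the same hour. *PRSS2* went the other way, and *AC026369.3* and *AC012085.2* had too few counts for the test. For *KIAA0087* and *PRSS2* the call rested on the single DMSO library of 48 h.

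MUTZ-3 is an established human acute myeloid leukemia (AML) line with an inversion of chromosome 3, grown here with GM-CSF and medium conditioned by a bladder carcinoma line. In the PARPi experiment, 10 libraries covered untreated cells at 0 h and cells harvested at 12, 24 and 48 h after addition of the vehicle DMSO, of olaparib at 10 µM or of talazoparib at 1 µM. In the knockdown experiment, 6 libraries covered day 3 and day 6 after lentiviral transduction of pLKO.1 and puromycin selection, with a non-targeting control (NTC, SHC002), shEVI1-2531 or shEVI1-2532. All libraries were poly(A)-selected and each condition was sequenced 1 time in 1 cell line, so the interval given with a ratio of 1 library to another reflects counting error and no biological spread. Totals ran from 55999673 to 72681943 counts in the PARPi experiment and from 95523038 to 120716213 in the knockdown experiment, so that 3 counts, taken as the limit that a count of 0 allows, correspond to 0.0413 to 0.0536 and 0.0249 to 0.0314 CPM. CPM are raw counts relative to the library total, and levels are given below as CPM after TMM scaling, a correction for differences in library composition.

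EVI1 is a zinc finger transcription factor of hematopoietic stem cells. In AML with inv(3) its gene comes under the control of a distal enhancer that normally serves *GATA2*, and the blasts depend on its continued expression. shRNAs lower the mRNA directly, whereas olaparib and talazoparib block the catalytic activity of PARP1 and talazoparib also traps the protein on DNA. The 7 genes do not form a known pathway. *ETS2* encodes an ETS family transcription factor that acts downstream of Ras and MAP kinase signals, and *ZNF608* a zinc finger protein with *ZNF609* as its paralog. *CARMIL2* encodes a regulator of actin capping protein that also serves as a scaffold of CD28 signalling in T cells, and *PRSS2* encodes a trypsinogen, a digestive protease precursor of the pancreas. *KIAA0087*, *AC026369.3* and *AC012085.2* are annotated in GENCODE v29 as a long intergenic noncoding RNA and as a pair of antisense RNAs.

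In GRCh38, the protein-coding members lie on chromosome 21 from 38805183 to 38824955 on the plus strand (*ETS2*, ENSG00000157557), on chromosome 5 from 124636913 to 124748807 on the minus strand (*ZNF608*, ENSG00000168916), on chromosome 16 from 67644988 to 67657569 on the plus strand (*CARMIL2*, ENSG00000159753) and on chromosome 7 from 142760398 to 142774564 on the plus strand (*PRSS2*, ENSG00000275896). Of the noncoding members, *KIAA0087* (ENSG00000122548) lies on chromosome 7 from 26533121 to 26538788 on the minus strand. *AC026369.3* (ENSG00000256948) lies on chromosome 12 from 106524 to 111850 and *AC012085.2* (ENSG00000258274) on chromosome 12 from 93707791 to 93737823, both on the minus strand and within the opposite-strand genes *IQSEC3* and *CRADD*, with 0 shared exonic bases. Since the kit marks strand but the strand setting of the counting is not stated, reads of these antisense RNAs and of their host genes may not be told apart. *KIAA0087* shares 383 exonic bases with *AC004947.2*, *CARMIL2* shares 58 with *ACD*, and *PRSS2* shares 40 with *PRSS3P1*, which had 0 counts in all 16 libraries.

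The sequence upstream of the start is shown for the 4 members that the RefSeq promoter table (GRCh38.p14) holds, because these genes were low together after knockdown of a transcription factor with known motifs. Each run is the 250 bases before the RefSeq start, 5′ to 3′ on the strand of the gene. Capitals mark a match, on either strand, to the letters of the EVI1 first zinc finger motif (GACAAGATA), the EVI1 second zinc finger motif (GAAGATGAG), a GATA motif (AGATAA), an ETS motif (CCGGAA) or a RUNX motif (TGTGGT). The windows are chr7:26538826-26539075 on the minus strand for *KIAA0087*, chr7:142770720-142770969 on the plus strand for *PRSS2*, chr5:124748825-124749074 on the minus strand for *ZNF608* and chr21:38804933-38805182 on the plus strand for the upstream start of *ETS2*.
KIAA0087: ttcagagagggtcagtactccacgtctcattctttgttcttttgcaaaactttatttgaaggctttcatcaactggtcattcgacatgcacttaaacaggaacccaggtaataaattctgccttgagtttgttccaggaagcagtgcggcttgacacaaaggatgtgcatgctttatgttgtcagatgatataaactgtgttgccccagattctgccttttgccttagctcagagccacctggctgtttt
PRSS2: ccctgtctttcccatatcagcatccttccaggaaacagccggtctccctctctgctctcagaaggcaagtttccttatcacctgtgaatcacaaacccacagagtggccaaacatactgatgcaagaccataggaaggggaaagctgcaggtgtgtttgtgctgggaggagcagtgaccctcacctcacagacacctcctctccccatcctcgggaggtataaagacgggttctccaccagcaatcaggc
ZNF608: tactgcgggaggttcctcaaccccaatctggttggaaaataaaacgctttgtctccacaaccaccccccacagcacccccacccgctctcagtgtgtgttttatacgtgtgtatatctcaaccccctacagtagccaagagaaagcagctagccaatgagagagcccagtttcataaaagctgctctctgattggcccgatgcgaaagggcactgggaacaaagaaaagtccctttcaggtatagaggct
ETS2: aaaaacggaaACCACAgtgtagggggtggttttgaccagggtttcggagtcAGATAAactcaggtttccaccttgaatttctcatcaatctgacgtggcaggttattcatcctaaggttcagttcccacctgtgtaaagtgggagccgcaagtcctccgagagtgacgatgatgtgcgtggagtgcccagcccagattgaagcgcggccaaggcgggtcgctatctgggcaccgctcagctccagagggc
Neither EVI1 motif was found in these 4 windows, and over all 35116 RefSeq windows of the same length the letters occurred in 0.0854% (first motif) and 0.265% (second motif). In the *ETS2* window, the GATA letters began at position −199 from the start and the RUNX letters, read on the other strand as ACCACA, at position −240. The GATA, RUNX and ETS letters occurred in 9.17%, 11.0% and 14.5% of all windows. The *KIAA0087*, *PRSS2* and *ZNF608* windows held none of the 5 motifs. The window of another *ETS2* start, chr21:38805679-38805928, is not shown and held none of them either. The *PRSS2* window lies within the span given above for that gene. A match or its absence describes letters in this window and not binding.

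The targeted gene was checked first. *MECOM* (ENSG00000085276, chromosome 3 from 169083499 to 169663775, minus strand), whose count covers all transcripts of the locus, MDS1-EVI1 included, was at 40.6 CPM in NTC at day 3 and 37.2 CPM at day 6. It was at 32.4% of NTC with shEVI1-2531 and 12.7% with shEVI1-2532 at day 3. On day 6 the values were 47.1% and 11.6%. All 4 shEVI1 libraries thus lay below NTC of the same day, those of shEVI1-2532 further than those of shEVI1-2531. In the PARPi experiment, *MECOM* was at 28.3 CPM in untreated cells and at 49.0, 49.3 and 61.7 CPM in DMSO at 12, 24 and 48 h. With olaparib it was at 44.4, 38.4 and 23.3 CPM, and with talazoparib at 44.8, 30.8 and 10.1 CPM. The DMSO level was thus above that of untreated cells, at 218% by 48 h, and the olaparib and talazoparib libraries of 48 h were at 82.5% and 35.5% of untreated cells. Relative to DMSO of the same hour, *MECOM* was at 90.7% of DMSO with olaparib and 91.5% with talazoparib at 12 h, at 77.9% and 62.5% at 24 h, and at 37.9% and 16.3% at 48 h.

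After knockdown, the members fell into 2 kinds by how much of their mRNA remained. All 7 were below 50% of NTC in each of the 4 shEVI1 libraries, as were 2.72% of the 18606 genes that reached 10 counts in 2 or more knockdown libraries. *KIAA0087*, *PRSS2*, *AC026369.3* and *AC012085.2* were at or below 10% in all 4, as were 0.199% of those genes. Both counts follow from the choice of the members and nothing is read from them. *ETS2* and *CARMIL2* were reduced but still well expressed, so that they are not lost in the literal sense, and *ZNF608* stood between both kinds.

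*KIAA0087* had 218 counts in NTC at day 3 and 374 at day 6. It had 0 counts with either shRNA at day 3, and 1 count with shEVI1-2531 and 0 with shEVI1-2532 at day 6. Where a library had 0 counts, set at the floor of 3 counts in that library, *KIAA0087* was at least 51.2-fold (shEVI1-2531, day 3), 50.6-fold (shEVI1-2532, day 3) and 90.3-fold lower (shEVI1-2532, day 6). *AC026369.3* had 142 and 203 counts in NTC at day 3 and day 6, 1 count with shEVI1-2531 on either day and 0 with shEVI1-2532, the latter at least 32.9-fold lower at day 3 and 49.0-fold at day 6. *AC012085.2* had 100 and 68 counts in NTC, 2 and 1 with shEVI1-2531 and 1 and 1 with shEVI1-2532. The 3 noncoding RNAs were thus at the edge of detection in every shEVI1 library. The host gene *CRADD* was at 59.5% to 99.5% of NTC, whereas *IQSEC3*, the host of *AC026369.3*, was at 52.5% and 31.0% with shEVI1-2531 and at 26.5% and 12.3% with shEVI1-2532 on day 3 and day 6.

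*PRSS2* had 194 counts in NTC at day 3 and 482 at day 6, and at most 7 in any shEVI1 library. With shEVI1-2531 it had 4 and 7 counts, or 2.93% (95% interval 0.789 to 7.62) and 1.56% (0.624 to 3.24) of NTC. With shEVI1-2532 it had 2 on either day, or 1.48% (0.178 to 5.42) and 0.573% (0.0692 to 2.08). *ZNF608* was at 4.78 and 7.96 CPM in NTC, at 0.551 and 1.00 CPM with shEVI1-2531 and at 0.569 and 0.671 CPM with shEVI1-2532, or 8.43% to 12.6% of NTC. *CARMIL2* was at 29.8 and 49.0 CPM in NTC, at 10.7 and 15.9 CPM with shEVI1-2531 and at 9.14 and 12.2 CPM with shEVI1-2532. *ETS2* was at 118 and 169 CPM in NTC, at 53.2 and 59.1 CPM with shEVI1-2531 and at 49.7 and 56.1 CPM with shEVI1-2532. In these 4 genes every shEVI1 library lay below both NTC libraries. The share that remained ranged from 24.8% to 35.9% of NTC for *CARMIL2* and from 33.1% to 45.2% for *ETS2*, and for *ETS2* and *ZNF608* at day 3 it was nearly the same with both shRNAs (45.2% and 42.3%, 11.5% and 11.9%) although *MECOM* was at 32.4% and 12.7%.

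**Figure D1:**
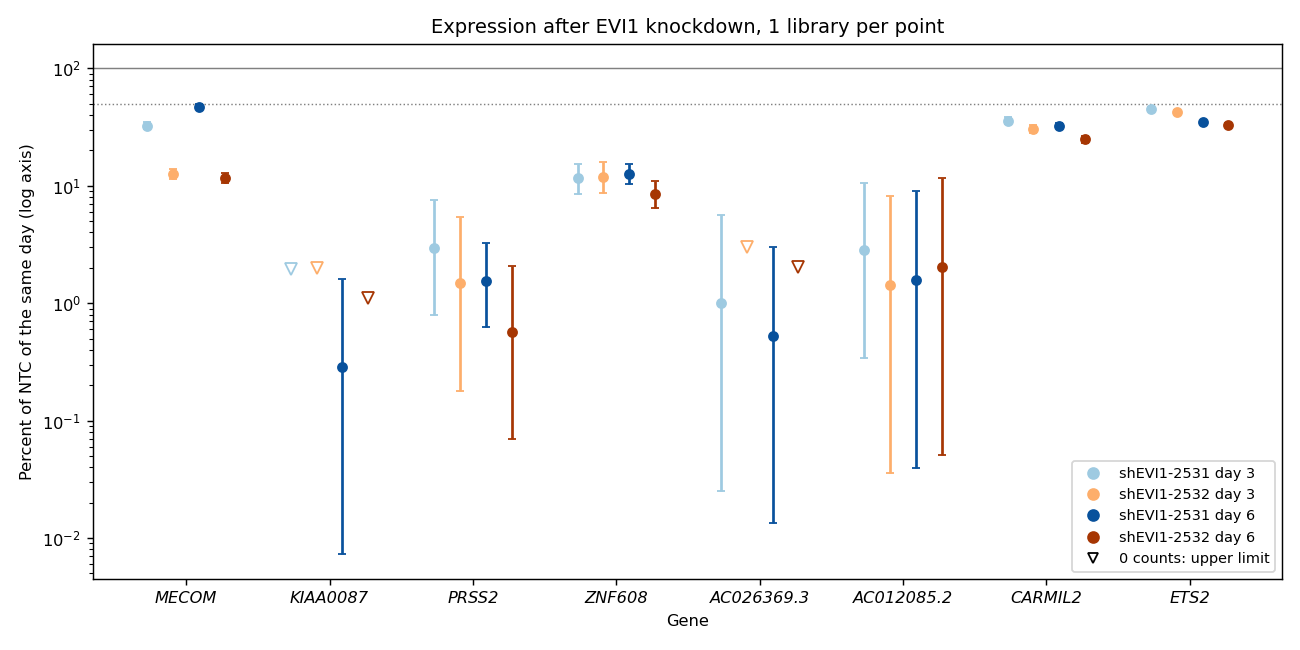
Expression of *MECOM* and the 7 genes in each shEVI1 library as percent of NTC of the same day, on a log axis, with 95% counting intervals; open triangles are upper limits where a library had 0 counts, the solid line marks 100% and the dotted line 50%. *ETS2* and *CARMIL2* sit between 24.8% and 45.2%, *ZNF608* between 8.43% and 12.6%, and the other 4 genes at or below 3.04%.

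The NTC libraries themselves differed between days. From day 3 to day 6, NTC was at 242% for *PRSS2*, 167% for *KIAA0087*, 167% for *ZNF608*, 164% for *CARMIL2*, 144% for *ETS2*, 139% for *AC026369.3* and 66.3% for *AC012085.2*, while *MECOM* was at 91.8%. With 1 NTC library a day, the day and the library cannot be told apart.

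Levels in the PARPi experiment separated the members further. *ETS2* was at 278 CPM in untreated cells, and in DMSO at 182, 158 and 147 CPM at 12, 24 and 48 h. With olaparib it was at 169, 118 and 75.6 CPM, and with talazoparib at 166, 95.9 and 59.7 CPM. The inhibitor libraries lay below DMSO at each hour, and the distance widened with time. *CARMIL2* was at 43.0 CPM in untreated cells and at 31.3, 26.5 and 29.6 CPM in DMSO. With olaparib it was at 32.0, 26.3 and 15.9 CPM, and with talazoparib at 35.1, 23.6 and 11.7 CPM. Its libraries stayed close together at 12 and 24 h and separated at 48 h. *ZNF608* was at 5.49 CPM in untreated cells and at 8.51, 6.26 and 7.42 CPM in DMSO. With olaparib it was at 11.0, 6.69 and 4.28 CPM, and with talazoparib at 10.1, 4.79 and 2.33 CPM, above DMSO at 12 h and below all DMSO libraries at 48 h.

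For the 4 members with low counts, the DMSO libraries differed widely between hours. *KIAA0087* was at 0.739 CPM in untreated cells and at 0.266, 0.346 and 1.49 CPM in DMSO, which corresponds to 18, 26 and 98 counts. With olaparib it was at 0.336, 0.378 and 0.442 CPM, and with talazoparib at 0.308, 0.762 and 0.294 CPM. DMSO at 48 h stood above the other 9 libraries, and between 12 and 48 h the olaparib level went to 132% (95% interval 70.6 to 246) and the talazoparib level to 95.7% (45.5 to 194), both intervals spanning 100%. *AC026369.3* had 17 counts in untreated cells and 4, 3 and 29 in DMSO at 12, 24 and 48 h. It had 0, 5 and 4 counts with olaparib and 2, 2 and 2 with talazoparib, so that DMSO at 48 h again held the most. *AC012085.2* had 8 counts in untreated cells, 10, 7 and 24 in DMSO, 6, 6 and 4 with olaparib and 1, 3 and 2 with talazoparib, with the same library on top.

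*PRSS2* showed the opposite course. It was at 0.739 CPM in untreated cells and at 1.09, 0.573 and 0.396 CPM in DMSO at 12, 24 and 48 h, or 74, 43 and 26 counts. With olaparib it was at 0.917, 0.546 and 0.958 CPM, and with talazoparib at 1.11, 0.948 and 1.11 CPM. Both inhibitor libraries of 48 h lay near their own 12 h values (105%, 95% interval 70.7 to 154, and 100%, 69.8 to 143), and DMSO at 48 h was the lowest of the 10 libraries, at 36.2% of DMSO at 12 h (22.2 to 57.3).

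**Figure D2:**
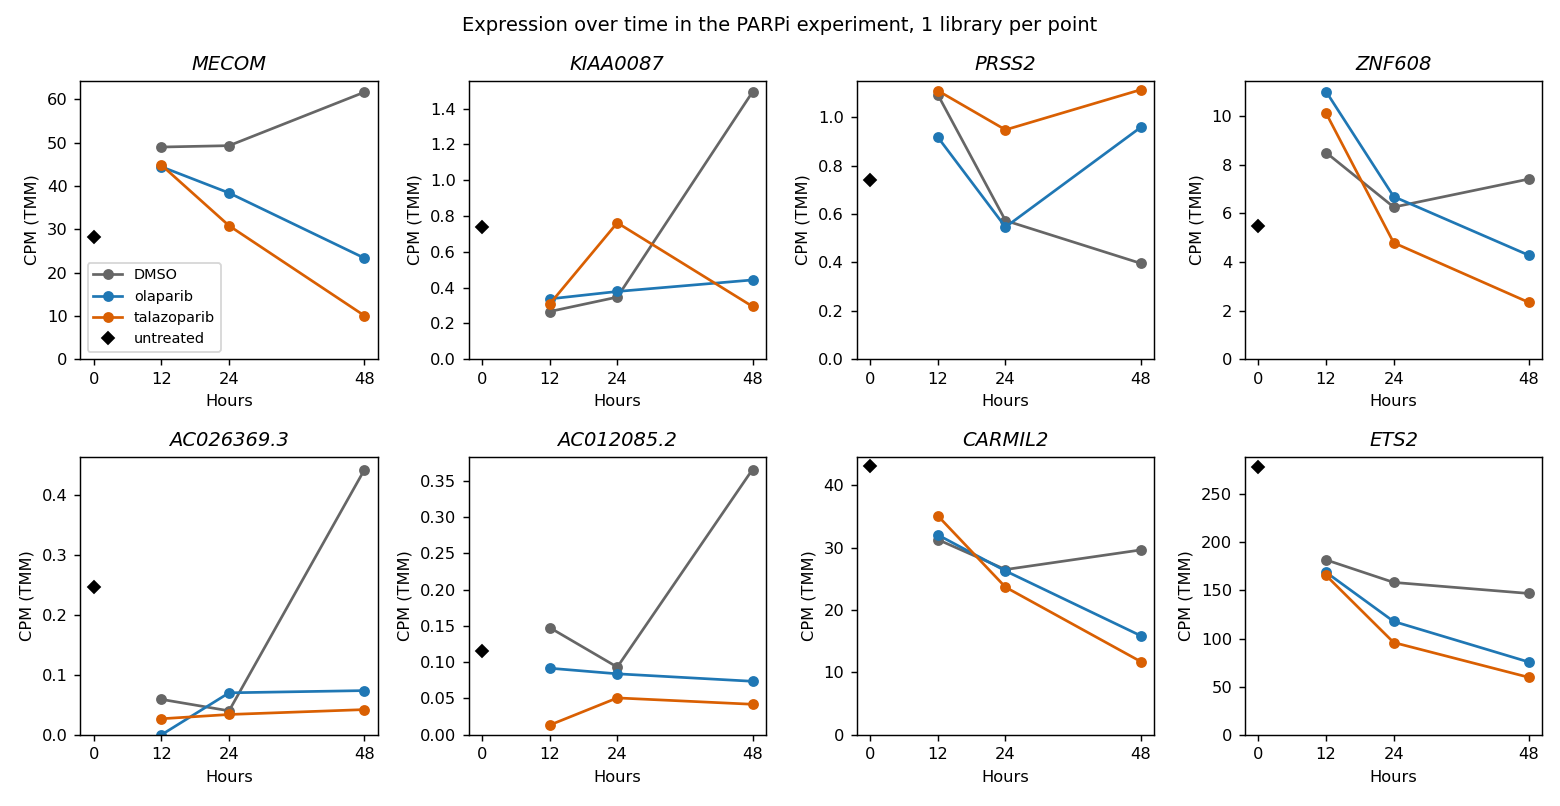
Levels of *MECOM* and the 7 genes in CPM (vertical axes, each from 0) against hours of treatment in the 10 libraries of the PARPi experiment, 1 library per point. In *ETS2*, *CARMIL2* and *ZNF608* both inhibitor lines fall below a rather even DMSO line, whereas in *KIAA0087*, *AC026369.3* and *AC012085.2* the DMSO line goes up at 48 h and in *PRSS2* it goes down.

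The 48 h effect was tested with both inhibitors against DMSO of the same hour in edgeR's quasi-likelihood fit of the 9 time course libraries, which left 3 residual degrees of freedom. Its error comes from the difference between olaparib and talazoparib at the same hour, so the spread between DMSO libraries does not enter. The test pools this error in part over genes, so it is not that of each gene alone. Of the 7 members, 5 had at least 10 counts in at least 3 of these libraries and were tested. *AC026369.3* reached 10 counts in 1 of the 9 libraries and *AC012085.2* in 2. 4 of the 5 were lower at 48 h at an adjusted p under 0.05, against 16.6% of all 17218 genes tested, and 1 was higher, against 18.2%. The median log2 fold change of the 5 was −1.12, against 0.01 over all genes tested.

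*ETS2* fell by 1.12 on the log2 scale (SE 0.18, adjusted p = 0.00332) and was at 51.5% of DMSO with olaparib and 40.6% with talazoparib. *CARMIL2* fell by 1.10 (SE 0.19, adjusted p = 0.00438), to 53.6% and 39.6%. *ZNF608* fell by 1.16 (SE 0.32, adjusted p = 0.0219), to 57.6% and 31.5%. *MECOM* fell by 1.88 (SE 0.36, adjusted p = 0.00595). Relative to DMSO of 48 h, the 3 genes thus moved the same way as *MECOM* by a smaller amount. With talazoparib all 3 were lower than with olaparib, as was *MECOM*. Without inhibitor the courses differed. DMSO at 48 h was at 218% of untreated cells for *MECOM*, 135% for *ZNF608*, 68.9% for *CARMIL2* and 52.8% for *ETS2*. The size of the 48 h effect placed *MECOM* below 97.9% of the genes tested, *ZNF608* below 92.3%, *ETS2* below 91.6% and *CARMIL2* below 91.4%. These calls held in each alternative run at the same threshold, with log2 fold changes of −1.35 to −0.96 for *ETS2*, −1.34 to −0.90 for *CARMIL2* and −1.67 to −0.79 for *ZNF608*. At a threshold of 0.01, *ZNF608* was no longer called.

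*KIAA0087* fell by 2.0 (SE 0.45, adjusted p = 0.01), to 29.6% of DMSO with olaparib (95% interval 18.1 to 46.7) and 19.7% with talazoparib (10.4 to 34.7), which placed it below 98.3% of the genes tested. *PRSS2* rose by 1.38 (SE 0.44, adjusted p = 0.0362), to 242% (148 to 404) and 281% (173 to 469). When the 3 DMSO libraries of all hours formed the control group for the 2 inhibitor libraries of 48 h, an alternative chosen after seeing the data, *KIAA0087* was at −0.91 (SE 0.71, adjusted p = 0.333) and *PRSS2* at 0.59 (SE 0.42, adjusted p = 0.283) in the same test, and neither was called. With that control the log2 fold changes were −1.26 for *ETS2* (adjusted p = 0.00143), −1.08 for *CARMIL2* (adjusted p = 0.00313), −1.16 for *ZNF608* (adjusted p = 0.0114) and −1.67 for *MECOM* (adjusted p = 0.00375), all of them called. That fit has no term for hour, so changes of the DMSO level with time enter all of its values. The *PRSS2* call was also lost with DESeq2 (adjusted p = 0.056), with scaling to the library total (adjusted p = 0.054), and without olaparib at 12 h (adjusted p = 0.0504), talazoparib at 12 h (adjusted p = 0.0504) or talazoparib at 48 h (adjusted p = 0.0617).

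**Figure D3:**
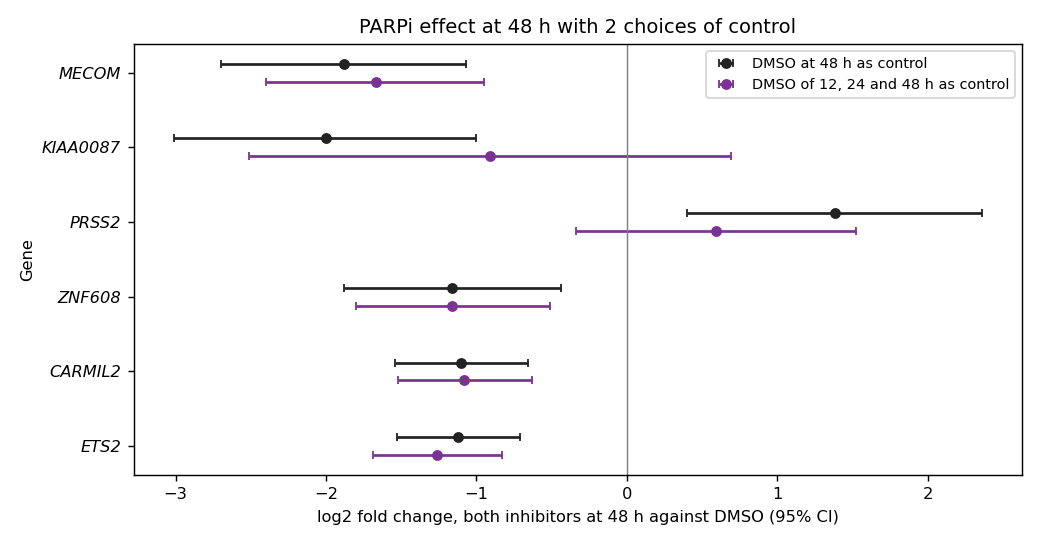
Log2 fold change of both inhibitors at 48 h against DMSO (horizontal axis) with 95% confidence intervals for *MECOM* and the 5 members tested, with DMSO of 48 h (black) or DMSO of all 3 hours (purple) as control. The intervals of *KIAA0087* and *PRSS2* cross 0 with the second control, and those of *MECOM*, *ZNF608*, *CARMIL2* and *ETS2* stay below 0 with both.

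The antisense RNAs entered a fit only without the filter on low counts, where 33282 genes were tested. There *AC026369.3* was at −2.87 (SE 0.80, adjusted p = 0.0026) and *AC012085.2* at −2.60 (SE 0.78, adjusted p = 0.00603), both called. The estimated error differed from that of the filtered fit: for *MECOM* the SE was 0.19 without the filter and 0.36 with it. Adjusted p-values of both fits are therefore not directly comparable. In single libraries at 48 h, *AC026369.3* was at 16.7% of DMSO with olaparib (4.26 to 47.5) and 9.52% with talazoparib (1.10 to 37.6), and *AC012085.2* at 20.2% (5.09 to 58.7) and 11.5% (1.32 to 46.3). *IQSEC3* fell as well (−1.67, SE 0.47, adjusted p = 0.0243) and *CRADD* was at 0.13 (SE 0.17, adjusted p = 0.594). With both inhibitors, *KIAA0087*, *AC026369.3* and *AC012085.2* were below 50% of DMSO at 48 h, as were 6.24% of the 17218 genes. Only *KIAA0087* is among these 17218 genes. The share is therefore no reference for the antisense RNAs, each with 4 counts with olaparib and 2 with talazoparib at 48 h. As for *KIAA0087*, the value of both antisense RNAs rests on the DMSO library of 48 h, which was at 748% of DMSO at 12 h for *AC026369.3* (263 to 2927) and 247% for *AC012085.2* (114 to 580).

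Before 48 h no member was called. At 12 h the fitted log2 fold changes ranged from −0.12 for *ETS2* to 0.31 for *ZNF608* and 0 of 5 members passed, against 0.0871% of all genes, with 0 members at an unadjusted p under 0.05 and 0 called by DESeq2. At 24 h 0 of 5 passed, against 1.72% of all genes, with 1 member at an unadjusted p under 0.05 and 0 called by DESeq2. That member was *ETS2*, at −0.57 (SE 0.18, adjusted p = 0.156), and it was at 74.4% of DMSO with olaparib and 60.6% with talazoparib, beside *MECOM* at 77.9% and 62.5%. Without the filter on low counts, in the fit whose adjusted p-values are not directly comparable, *ETS2* was called at 24 h (adjusted p = 0.0324). In contrast, *CARMIL2* was at 99.2% and 89.4% and *ZNF608* at 107% and 76.5%. *KIAA0087* and *PRSS2* lay above DMSO with talazoparib at 24 h in terms of counting error (220%, 133 to 371, and 166%, 109 to 252), although their fits at that hour, 0.70 (SE 0.50, adjusted p = 0.473) and 0.37 (SE 0.40, adjusted p = 0.658), were not called.

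**Figure D4:**
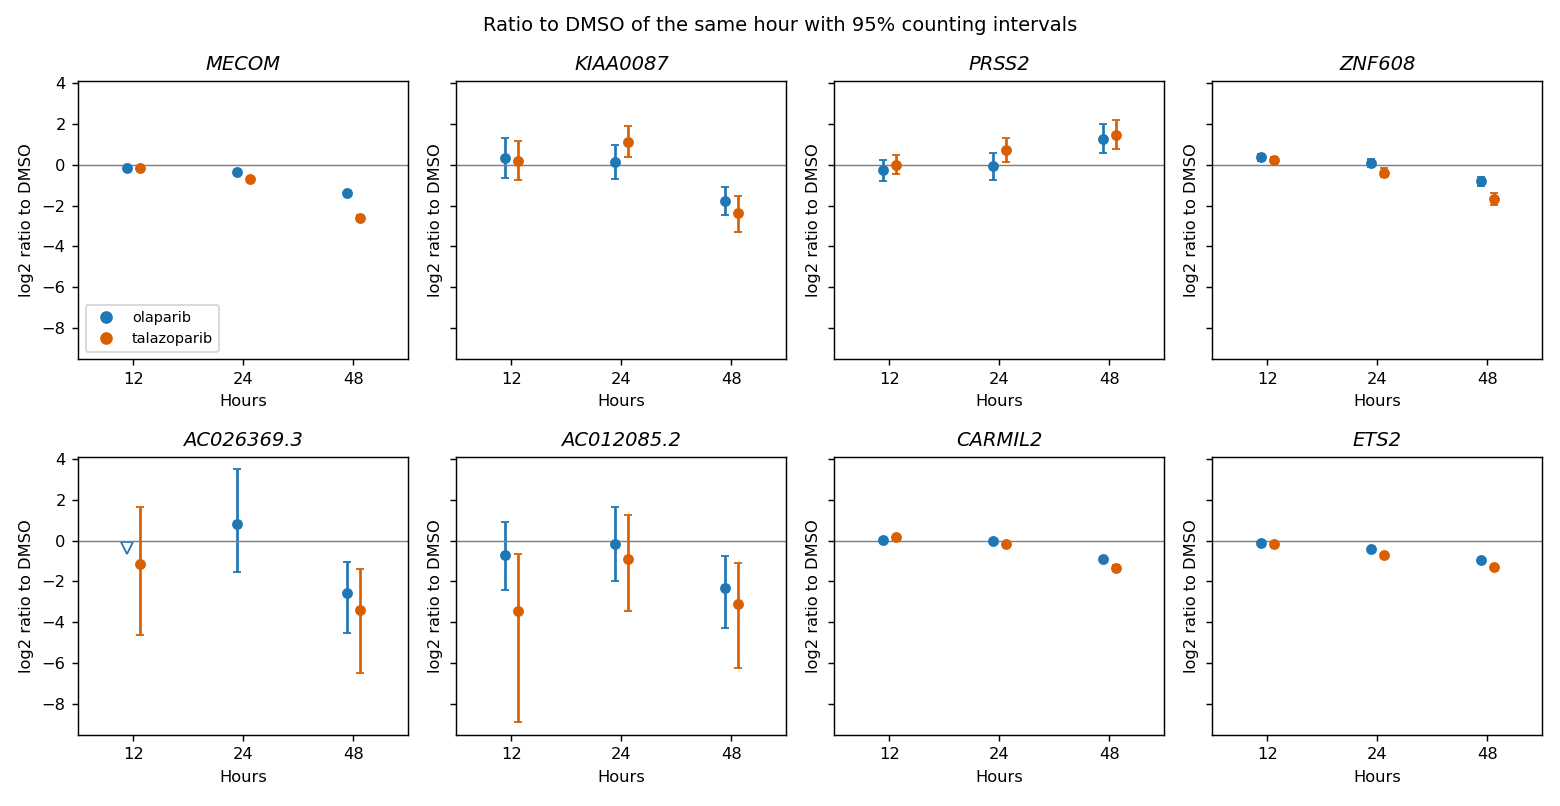
Log2 ratio to DMSO of the same hour (vertical axis) at 12, 24 and 48 h for *MECOM* and the 7 genes, with olaparib in blue and talazoparib in orange and 95% counting intervals. *ETS2* runs alongside *MECOM* at 12 and 24 h, *PRSS2* is the only gene above 0 at 48 h, the open triangle is an upper limit, and no ratio is drawn for *AC026369.3* with talazoparib at 24 h, where both libraries had at most 3 counts.

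The ratio of the inhibitor libraries to DMSO of the same hour changed with time in all 5 members tested. Per doubling of hours, the log2 fold change moved by −0.50 for *ETS2* (SE 0.13, adjusted p = 0.00132), −0.61 for *CARMIL2* (SE 0.13, adjusted p = 8.1e-05), −0.77 for *ZNF608* (SE 0.15, adjusted p = 1.4e-05), −1.25 for *KIAA0087* (SE 0.33, adjusted p = 0.00153) and 0.73 for *PRSS2* (SE 0.28, adjusted p = 0.0417), beside −0.93 for *MECOM* (SE 0.13, adjusted p = 8.4e-11). Over all genes tested 9.4% had a called slope downwards and 10.4% upwards. The slope fit left 2 residual degrees of freedom. Its error comes from the departure of the ratios to DMSO from a straight line on log2 hours. No hour has a second DMSO library. For *KIAA0087*, DMSO at 48 h was at 562% of DMSO at 12 h, against 132% with olaparib and 95.7% with talazoparib. For *PRSS2* these values were 36.2%, 105% and 100%. In both genes the DMSO level thus moved more than the inhibitor levels. In DESeq2 the slopes of *KIAA0087* (adjusted p = 0.152) and *PRSS2* (adjusted p = 0.201) were not called, nor was that of *PRSS2* with scaling to the library total (adjusted p = 0.0923).

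Averaged over the 3 hours, no member was called (0 of 5, against 3.99% of all genes), with 1 member at an unadjusted p under 0.05 and 1 called by DESeq2. This was *ETS2* in both cases, with a mean log2 fold change of −0.63 (SE 0.17, adjusted p = 0.0581 in edgeR), and with adjusted p-values of 0.00524 to 0.34 over the alternatives. Talazoparib and olaparib were compared over the 3 hours as 1 pair of compounds, each at its own dose. No member was called (0 of 5 in edgeR, 0 at an unadjusted p under 0.05 and 0 in DESeq2), against 0.0% of all genes. The 95% confidence intervals of the talazoparib to olaparib log2 ratio ran from −0.66 to 0.24 for *ETS2*, from −0.70 to 0.46 for *CARMIL2*, from −1.14 to 0.27 for *ZNF608*, from −1.11 to 1.66 for *KIAA0087* and from −0.32 to 1.15 for *PRSS2*. Differences within these intervals remain compatible with the data, and the average over hours does not describe 48 h alone.

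As a description of how closely each member kept to *MECOM*, the root mean square difference of the 6 log2 ratios to DMSO was computed between each gene and *MECOM*. It was 0.57 for *ETS2*, 0.57 for *ZNF608*, 0.63 for *CARMIL2*, 0.82 for *KIAA0087*, 1.22 for *AC012085.2*, 1.44 for *AC026369.3* and 2.08 for *PRSS2*. Of the 17217 other genes tested, 5.41% were closer to *MECOM* than *ETS2* was, 5.55% than *ZNF608*, 7.12% than *CARMIL2*, 14.0% than *KIAA0087*, 43.5% than *AC012085.2*, 61.1% than *AC026369.3* and 89.1% than *PRSS2*. The 6 ratios share the 3 DMSO libraries, and a prior count of 0.5 was added to every library, which bears on the values of both antisense RNAs at 0 to 29 counts.

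Over all 10 log2 ratios, of which 4 are the knockdown ratios that the selection used, the smallest root mean square differences to *ETS2* were those of *USP51* (0.20) and *ARHGEF17* (0.23), and to *CARMIL2* they were *DNM1* (0.19) and *PIK3C2B* (0.22). For *ZNF608* they were *FADS1* (0.54) and *GUCY1A1* (0.56). For the 4 members with low counts, the ratios of libraries at or near 0 counts depend on the prior count of 0.5, and so do these differences. Among the 11149 candidates with a mean log2 CPM above 1, *IGHM* came nearest to *KIAA0087* (1.47), *PRSS2* (1.24) and *AC026369.3* (1.64), and *ERG* to *AC012085.2* (1.32), with *AC246787.2* next in all 4 cases (1.33 to 2.31).

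Of 27 genes of the ETS family, 21 were tested at 48 h, of which 8 fell, *ETS2* included, 2 rose and 11 were not called. Over all genes tested 16.6% fell and 18.2% rose, against which the list counts that follow are also to be read. The family had a median log2 fold change of −0.24 against 0.01 over all genes tested. *ETV4* fell by 2.14 (SE 0.36, adjusted p = 0.00381). *ERG*, the nearest tested gene on the low-coordinate side of *ETS2* at a gap of 143403 bases and a factor of hematopoietic stem cells, fell by 2.22 (SE 0.50, adjusted p = 0.0108) and was at 0.934% to 11.6% of NTC after knockdown. The paralogs *FLI1* and *ETS1* fell by 0.73 (SE 0.14, adjusted p = 0.00619) and 0.58 (SE 0.16, adjusted p = 0.0194). After knockdown *FLI1* was at 57.8% to 73.9% of NTC, whereas *ETS1* was at 76.2% and 76.4% with shEVI1-2531 and at 159% and 130% with shEVI1-2532. *SPI1*, which encodes the myeloid factor PU.1, rose by 1.05 (SE 0.20, adjusted p = 0.0055), and *ETV7*, named after its value was seen, rose by 2.02 (SE 0.43, adjusted p = 0.00818).

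*ZNF609*, the paralog of *ZNF608*, was at 0.08 (SE 0.16, adjusted p = 0.736) at 48 h and at 58.9% to 76.2% of NTC after knockdown. Together with the cohesin loader genes *NIPBL* and *MAU2* and the Integrator genes *INTS13* and *INTS14*, which encode known partners of this pair of zinc finger proteins, 2 of 6 genes fell, *ZNF608* included, and none rose, with a median of −0.36. Besides *ZNF608* this was *INTS14* (−0.78, SE 0.19, adjusted p = 0.0132).

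*CARMIL2* was the only one of 14 genes of actin capping protein and its regulators to pass, with a median of −0.07 over the list. Its paralogs *CARMIL1* and *CARMIL3* were at −0.43 (SE 0.20, adjusted p = 0.115) and −0.84 (SE 0.60, adjusted p = 0.301). *CARMIL1* was at 47.5% and 65.1% of NTC with shEVI1-2531 and at 95.2% and 72.3% with shEVI1-2532 at day 3 and day 6. Of 22 genes that link CD28 to NF-kB, 20 were tested, 3 fell, *CARMIL2* included, 2 rose and 15 were not called, with a median of −0.12, so that the counts lay no higher than the shares over all genes (16.6% and 18.2%). *PRKCQ*, which encodes the theta isoform of protein kinase C, fell by 1.64 (SE 0.26, adjusted p = 0.0031), and *PRKCB*, named after its value was seen, fell by 0.51 (SE 0.14, adjusted p = 0.0221). The adaptor gene *GRB2* rose by 0.89 (SE 0.17, adjusted p = 0.0064) and *RELB*, also named after its value was seen, by 1.34 (SE 0.29, adjusted p = 0.00925). *CD28* itself was too low to be tested, with a median of 0.0 CPM.

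*PRSS2* was the one trypsinogen gene with enough counts to be tested. *PRSS1* had at most 1 count in any library and *PRSS3* had 0, but reads can be shared among these near-identical paralogs and the handling of multi-mapping reads is not stated, so the count of *PRSS2* is uncertain in this respect. Of 9 genes for trypsinogens, their activator, inhibitors and receptor, 4 were tested. *F2RL1*, which encodes the trypsin-activated receptor PAR-2, fell by 1.46 (SE 0.26, adjusted p = 0.00423), the inhibitor gene *SERPINA1* rose by 2.41 (SE 0.40, adjusted p = 0.00369) and *SPINK2* was at −0.13 (SE 0.31, adjusted p = 0.761). The 7 markers of pancreatic acinar cells summed to at most 0.0761 CPM in the PARPi libraries and 0.091 CPM in the knockdown libraries, and *CELA3A*, *CLPS*, *CTRB2* and *PNLIP* were at 0 in all 16.

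The nearest tested genes on either side of each member were 14 in all, of which 5 fell and 1 rose at 48 h, against 16.6% and 18.2% of all genes tested. Beside *CARMIL2*, *CTCF* fell by 0.72 (SE 0.15, adjusted p = 0.00786) and *ACD* by 0.87 (SE 0.18, adjusted p = 0.00818), while their log2 ratios to NTC after knockdown were −0.33 to −0.14 and −0.37 to −0.12. The T cell receptor segment *TRBV8-2*, at a gap of 373751 bases from *PRSS2*, rose by 3.04 (SE 0.67, adjusted p = 0.00957). Its log2 ratios to NTC were 0.61 to 1.36. *AF064858.1*, at a gap of 163614 bases from *ETS2*, fell by 1.58 (SE 0.52, adjusted p = 0.0415). Its log2 ratios to NTC were −2.86 to −1.79. The neighbour of *KIAA0087* at lower coordinates, *AC004540.1*, had log2 ratios to NTC of −3.03 to −2.22 and was at −1.10 (SE 0.43, adjusted p = 0.0772) at 48 h. On its other side, *AC004947.1* had 60 and 105 counts in NTC at day 3 and day 6, 1 and 4 with shEVI1-2531 and 0 with shEVI1-2532, and was at −2.18 (SE 0.82, adjusted p = 0.0671) at 48 h, with 35 counts in DMSO, 12 with olaparib and 0 with talazoparib. *LINC01170*, at a gap of 198288 bases from *ZNF608*, had log2 ratios to NTC of −3.06 to −1.65. After PARPi it was at 0.23 (SE 0.69, adjusted p = 0.816).

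Markers of other cell states were also followed. All 4 monocyte markers (*CD14*, *LYZ*, *VCAN* and *FCN1*) rose at 48 h of PARPi, and their summed level was 237 to 404 CPM in DMSO, 2114 CPM with olaparib and 4266 CPM with talazoparib at 48 h, and 162 to 204 CPM in NTC against 1004 to 5666 CPM in the shEVI1 libraries. Of the 5 markers of progenitors and myeloid blasts, *CD34* (−1.66, SE 0.24, adjusted p = 0.00206) and *MPO* (−1.61, SE 0.25, adjusted p = 0.00299) fell at 48 h, *CD33* rose (0.73, SE 0.20, adjusted p = 0.0211), and *KIT* and *PROM1* were not called. They summed to 3464 CPM in untreated cells and to 1867, 2341 and 3048 CPM in DMSO at 12, 24 and 48 h. DMSO at 48 h was thus the highest of the DMSO libraries but below untreated cells. At 48 h the sum was 1352 CPM with olaparib and 901 CPM with talazoparib, and no marker was at 0 in all 16 libraries. After knockdown their sum was 3663 CPM with shEVI1-2531 and 2112 CPM with shEVI1-2532 at day 3, where NTC was at 3756 CPM, and 5081 and 3120 CPM at day 6, where NTC was at 3486 CPM, so that it did not lie below NTC in every library. The sum is weighted towards *MPO*, with a median of 1900 CPM over the 16 libraries against 261 CPM for *CD34*. It does not describe each marker, and the study reported *CD34* among the genes lowered by both PARPi and *EVI1* knockdown. The 6 T cell markers, of interest for *CARMIL2*, summed to 5.23 to 12.8 CPM in the PARPi libraries and were highest in the 48 h inhibitor libraries, in which *CARMIL2* was lowest. In the knockdown experiment their sum was 7.93 and 9.81 CPM in NTC at day 3 and day 6, 7.24 and 3.31 CPM with shEVI1-2531 and 3.77 and 4.26 CPM with shEVI1-2532, lower in the shEVI1 libraries, as was *CARMIL2*. The 5 B cell markers summed to 11.7 to 23.2 CPM in the PARPi libraries, with *MS4A1* at 0. In the knockdown experiment they summed to 16.1 and 24.5 CPM in NTC and to 12.5 to 15.9 CPM in the shEVI1 libraries. The 5 erythroid markers summed to at most 0.313 CPM in any library. The part of the monocyte and progenitor markers in the results for the 7 genes was not tested, and in bulk RNA fewer cells that express a gene and less RNA per cell cannot be told apart.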

How the data were processed

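RNA-Seq was performed in MUTZ-3 cells in 16 libraries, each of which was its own group as labelled. The authors deposited raw counts per gene. The submitters' processing notes name STAR, Picard and featureCounts and the GRCh38 build, and neither versions, annotation release nor strand setting are given in the sources used here. The deposited TPM were not used. The name of the deposited files of 1 shRNA differs from its label, and the label was followed. GENCODE v29 was used for gene types and exons, since 79.6% of the 58457 shared IDs had the same coordinates.

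Genes that reached 10 counts in 3 or more of the 9 time course libraries were fitted with edgeR 4.0.16 (TMM, quasi-likelihood) in R 4.3.3 and p-values were adjusted after Benjamini-Hochberg over all 17218 genes, with a threshold of 0.05. The 48 h and other hourly effects left 3, the mean effect 4 and the slope on log2 hours 2 residual degrees of freedom. To these the edgeR tests add degrees of freedom from the error shared over genes. Alternatives were DESeq2 1.42.0, other scalings, filters and thresholds, libraries or hours left out, and other controls. Ratios of single libraries carry exact 95% binomial intervals. The fits of the 48 h effect, mean effect, slope and compound difference were run on simulated counts with 1 fixed spread. The simulation held no shift between DMSO libraries, so it does not bear on the reliance on 1 DMSO library per hour. Genes other than the 7 members were named by rule: paralogs, up to 3 genes per list with the smallest p among those called, flanking genes and the most similar profiles. *ETV7*, *PRKCB* and *RELB*, and uncalled genes of short lists such as *KIT*, *PROM1* and *SPINK2*, were named after their values were seen. The members, gene lists and tests were chosen with earlier results of these data known.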

Additional observations from a re-analysis of the deposited data

Results flagged for a closer look

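An effect of PARPi that differed between time points, by the slope of the effect on log2 hours in edgeR's quasi-likelihood test, marked 6 genes. The change per doubling of hours was −0.93 for *MECOM*, −0.77 for *ZNF608*, −1.25 for *KIAA0087*, −0.61 for *CARMIL2* and −0.5 for *ETS2*, and 0.73 for *PRSS2*. Since each hour has 1 DMSO library, the hour and the library cannot be told apart.

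*KIAA0087* and *PRSS2* were the genes among these 6 whose DMSO libraries of 12 and 48 h differed most. DMSO at 48 h was at 562% of DMSO at 12 h for *KIAA0087* (95% counting interval 337 to 987) and at 36.2% for *PRSS2* (22.2 to 57.3). For *ETS2*, *CARMIL2*, *ZNF608* and *MECOM* the same ratio was 80.8%, 94.7%, 87.2% and 126%. Groups of 1 library allow no outlier test.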

How the results depend on the processing

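At 48 h, 6001 genes were called (2865 lower, 3136 higher). Upper quartile scaling, DESeq2, other filters and the DMSO libraries of all hours as control kept this count within 1.5 times, and leaving out each inhibitor library in turn gave 4774 to 8086, whereas a threshold of 0.01 gave 2450. Scaling to the library total moved the median of all genes by −0.23 on the log2 scale and the split to 4508 lower and 2168 higher. Relative to that shift the members were at −2.0 (*KIAA0087*), −1.16 (*ZNF608*), −1.1 (*CARMIL2*), −1.12 (*ETS2*) and 1.37 (*PRSS2*). For the slope, 3404 genes were called (1618 lower, 1786 higher), 2424 lower and 1091 higher with the library total (median shift −0.12), and 2225 at 0.01. For the mean effect, 687 genes were called, against 17 at 0.01, 3438 with DESeq2, 3725 without a filter, 350 with at least 50 counts, 3740 without the 12 h libraries, 0 without the 24 h libraries (edgeR, with 2313 genes at p under 0.05 before adjustment) and 1233 without the 48 h libraries. Talazoparib against olaparib gave 0 genes in edgeR (355 at an unadjusted p under 0.05), 1 with DESeq2, 5 without a filter and 3 without the 48 h libraries. The causes were not tested.

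*PRSS2*, the 1 member higher at 48 h, left 0 higher with the library total, DESeq2, all DMSO libraries as control or a threshold of 0.01, and 0 to 1 when an inhibitor library was left out. The number of members lower at 48 h stayed within 1.5 times of 4, at 3 with all DMSO libraries as control or a threshold of 0.01 and at 6 without a filter. The antisense RNAs and, with at least 50 counts, *KIAA0087* could not be tested. Directions turned only in values that were not called, in single-library ratios whose interval held 0 or in ratios to untreated cells. Without the 48 h libraries the mean effect was 0.01 for *CARMIL2*, 0.49 for *KIAA0087* and 0.09 for *ZNF608*, and without the 24 h libraries talazoparib against olaparib was −0.29 for *KIAA0087*. Relative to untreated cells in place of DMSO, the log2 ratio was −0.29 for *CARMIL2* with talazoparib at 12 h, and for *MECOM* 0.65 (olaparib) and 0.66 (talazoparib) at 12 h and 0.44 and 0.12 at 24 h. Of the single-library ratios, 69 stayed within their counting intervals and 4 did not with upper quartile scaling, and 55 did and 18 did not with the library total. With untreated cells as denominator 11 stayed within them, 30 did not, and 5 whose interval against DMSO excluded 0 turned. Ratios whose interval held 0 are not among these 5, even where the sign changed. An example is *KIAA0087* with olaparib at 12 h, at 0.34 against DMSO and −1.14 against untreated cells. At 48 h that denominator gave log2 ratios with olaparib and talazoparib of −0.28 and −1.49 for *MECOM*, −0.36 and −1.23 for *ZNF608*, −0.74 and −1.33 for *KIAA0087*, −1.44 and −1.87 for *CARMIL2*, −1.88 and −2.22 for *ETS2* and 0.37 and 0.59 for *PRSS2*. Libraries were matched by hour, and the hour was a term of every fit against DMSO of the same hour. No further block by replicate could be fitted, since each condition has 1 library. Depth limits *AC026369.3* and *AC012085.2*, with 0 to 29 counts per PARPi library.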
